A study of Mus musculus with 12 samples.

Results

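The 42 genes described here build, regulate and fuel the contractile machinery of skeletal muscle. They were taken by symbol from the deposited table, which lists 23420 genes, and all 42 symbols were found there. The filter on low counts kept 35 of them for testing among 13095 genes, and Myh7, Myl2, Myl3, Tnnc1, Ckmt2, Myog and Myod1 fell below it. Of the 42 genes, 13 are typical of fast fibers, 8 are typical of slow fibers and the others belong to neither list.

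Skeletal muscle contracts when myosin of the thick filament pulls on actin of the thin filament, between Z discs that anchor the actin. Calcium released from the sarcoplasmic reticulum binds troponin and opens the thin filament to myosin. Most of these proteins exist in fast and slow versions from separate genes: a mouse limb or body-wall muscle is built mainly of fast fibers, which use the myosin heavy chains Myh4 (type IIb), Myh1 (type IIx) and Myh2 (type IIa), whereas slow fibers use Myh7. Mouse skin rests on a thin sheet of striated muscle, the panniculus carnosus.

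The tumors were B16-F10, a mouse melanoma line from the C57BL/6 strain, grown subcutaneously in the right flank of male C57BL/6J mice. Nonobese mice ate a matched control diet, and obese mice ate a Western diet containing 0.2% cholesterol for the 15 weeks that brought a 50% gain in weight. Once tumors could be felt, mice of each diet received anti–PD-1 (clone 29F.1A12) or an isotype control antibody (clone 2A3), both given intraperitoneally 3 times a week at 10 mg/kg. Each of the 4 groups held 3 tumors, and whole pieces of frozen tumor were processed, so the RNA of every cell type in the piece was read together. The number 1, 2 or 3 of a tumor is the replicate number of its label, and tumors with the same number came from different mice. Whether a number also stands for a shared day or batch is not stated. Values below are listed in the order tumor 1, tumor 2, tumor 3.

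Counts on genes summed to 14022929 to 33871843 per tumor (median 20968840), and the 42 muscle genes together took 0.00953% to 0.110% of them. The labelled tissue was checked with 7 melanocyte and melanoma markers (Mlana, Pmel, Tyr, Dct, Tyrp1, Sox10 and Mitf), which summed to 24720.2 to 30282.6 CPM (counts relative to the TMM-scaled library size). A gene with 3 counts in the deepest tumor stood at 0.0882 CPM, and over the 12 tumors the level of 3 counts reached up to 0.212 CPM. Lower levels could not be told from 0. In bulk tumors, fewer cells of a type and less RNA per cell cannot be told apart, and this applies to every value below.

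The promoters of the 3 fast myosin genes, of the slow myosin gene Myh7, of skeletal actin (Acta1) and of muscle glycogen phosphorylase (Pygm) are shown because the levels of these genes carry the results. They run from 250 bases before to 50 bases after a transcript start in the RefSeq annotation of GRCm38.p6, 5′ to 3′ on the strand of the gene. Capitals mark the letters CAGCTG and CACCTG (E-boxes, the sites read by myogenic factors), the MEF2 site and the CArG box (bound by MEF2 and by serum response factor) and TATAAA, searched on both strands. Myh4 lies at chr11:67237562-67237861, plus strand, Myh1 at chr11:67199852-67200151, plus strand, Myh2 at chr11:67170777-67171076, plus strand, Myh7 at chr14:54994500-54994799, minus strand, Acta1 at chr8:123894726-123895025, minus strand and Pygm at chr19:6384158-6384457, plus strand.
Myh4: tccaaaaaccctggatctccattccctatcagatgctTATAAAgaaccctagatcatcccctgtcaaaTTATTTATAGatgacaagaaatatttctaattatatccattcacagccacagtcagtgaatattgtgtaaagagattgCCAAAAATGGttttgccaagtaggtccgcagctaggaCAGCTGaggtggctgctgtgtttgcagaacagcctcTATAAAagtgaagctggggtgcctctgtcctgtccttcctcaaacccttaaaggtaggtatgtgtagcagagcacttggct
Myh1: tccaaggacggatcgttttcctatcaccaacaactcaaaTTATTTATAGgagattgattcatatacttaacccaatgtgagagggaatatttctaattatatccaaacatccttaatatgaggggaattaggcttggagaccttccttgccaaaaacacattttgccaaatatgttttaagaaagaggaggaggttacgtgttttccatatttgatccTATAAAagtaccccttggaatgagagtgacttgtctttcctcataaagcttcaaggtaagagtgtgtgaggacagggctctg
Myh2: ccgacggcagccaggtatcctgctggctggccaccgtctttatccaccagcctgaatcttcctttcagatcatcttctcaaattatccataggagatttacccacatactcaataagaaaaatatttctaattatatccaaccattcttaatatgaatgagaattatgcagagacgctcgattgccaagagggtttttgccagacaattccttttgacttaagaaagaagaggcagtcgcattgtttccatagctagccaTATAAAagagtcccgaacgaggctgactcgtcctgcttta
Myh7: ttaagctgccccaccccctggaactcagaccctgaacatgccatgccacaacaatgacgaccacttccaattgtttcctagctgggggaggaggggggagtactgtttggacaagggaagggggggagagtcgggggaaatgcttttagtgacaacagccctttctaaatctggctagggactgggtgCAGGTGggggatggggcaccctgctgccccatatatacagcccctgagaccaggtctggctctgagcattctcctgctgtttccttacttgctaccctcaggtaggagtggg
Acta1: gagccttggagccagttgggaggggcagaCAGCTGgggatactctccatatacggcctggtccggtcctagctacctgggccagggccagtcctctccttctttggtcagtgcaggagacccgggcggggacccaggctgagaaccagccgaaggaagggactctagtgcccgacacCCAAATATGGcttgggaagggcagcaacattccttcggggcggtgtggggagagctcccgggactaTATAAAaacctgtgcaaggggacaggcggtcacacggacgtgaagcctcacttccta
Pygm: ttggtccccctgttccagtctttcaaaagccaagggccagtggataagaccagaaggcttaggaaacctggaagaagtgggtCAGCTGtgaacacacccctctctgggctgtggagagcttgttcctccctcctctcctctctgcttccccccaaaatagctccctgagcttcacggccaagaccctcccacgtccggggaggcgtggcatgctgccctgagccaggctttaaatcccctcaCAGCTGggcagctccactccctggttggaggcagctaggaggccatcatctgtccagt

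Myh4 held the most matches of the 33 genes with a promoter in the RefSeq table, 6 in all: a CAGCTG, a MEF2 site, a CArG box and 3 copies of TATAAA, of which 1 lies inside the MEF2 site. Myh1 carried the same MEF2 letters as Myh4, and Myh2, the neighbor of both on chromosome 11, held TATAAA only. The Myh7 window held 1 CACCTG, read on the other strand as CAGGTG. Across the 33 genes, CAGCTG was found in 17 (51.5%), against 18.3% of the 27025 genes of the table. The MEF2 site was found in 7 (21.2%, against 3.70% of all genes), the CArG box in 4 (12.1%, against 1.81%), CACCTG in 10 (30.3%, against 22.6%) and TATAAA in 7 (21.2%, against 15.7%). These are matches of letters in a window and no sites shown to be used. Myot, Tnni2, Tcap, Myoz1, Actn3, Neb, Trdn, Myod1 and Tnnt3 had no entry.

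The muscle genes differed widely between tumors of one group. Their summed level was 119.6, 693 and 644 CPM in isotype-treated nonobese tumors, 112, 443 and 737 in anti–PD-1–treated nonobese tumors, 93.6, 106 and 299 in isotype-treated obese tumors and 153, 522 and 1109 in anti–PD-1–treated obese tumors. Within each group, the highest tumor held between 3.20 and 7.25 times the sum of the lowest. Tumor 1 was the lowest of its group for 33 of the 35 tested genes in isotype-treated nonobese mice, 33 in anti–PD-1–treated nonobese mice, 23 in isotype-treated obese mice and 32 in anti–PD-1–treated obese mice. Over all genes tested, tumor 1 was the lowest for 36.5%, 37.9%, 31.9% and 39.6% in the same order. Tumor 2 of the isotype-treated obese group was also low, and it was the lowest of its group for 9 of the 35 genes. The third tumor of the anti–PD-1–treated obese group was the highest of all 12 for 27 of the 35. For each comparison, the count of genes that passed or the median change is therefore also given without single tumors.

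**Figure D1:**
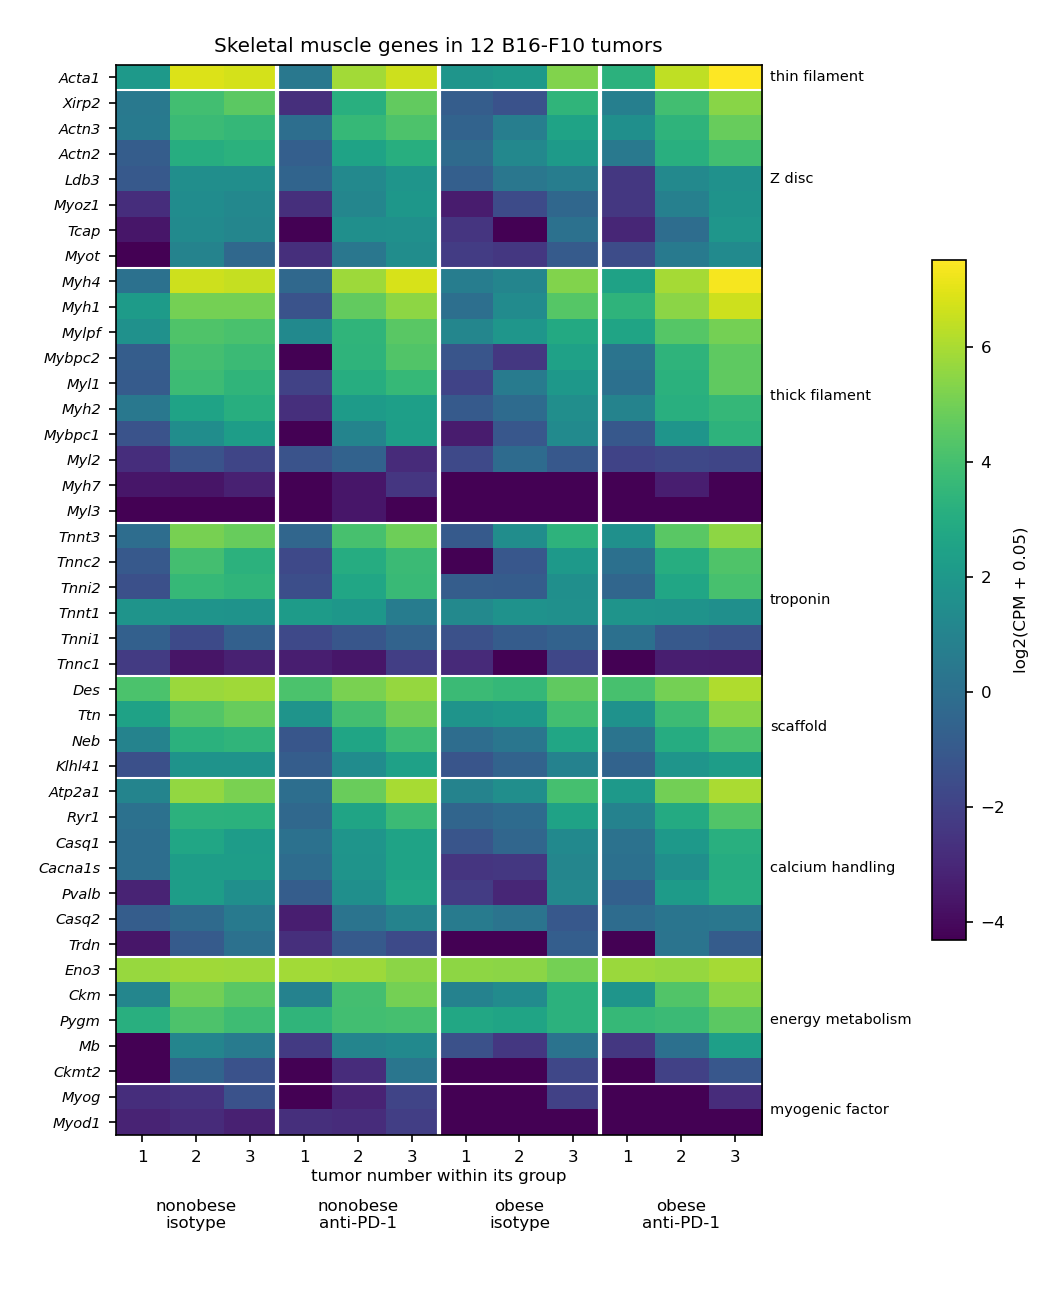
Level of each of the 42 muscle genes (rows, by role) in each of the 12 tumors (columns, by group), as log2(CPM + 0.05), from dark for low to yellow for high. Tumor 1 of each group and tumor 2 of the isotype-treated obese group are dark over most rows, whereas Eno3, Tnnt1 and Tnni1 keep nearly the same color in every column.

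Skeletal actin was the most abundant of the 42 genes per length of transcript, at 38.9 CPM per kilobase of exon on average over the 12 tumors. The order was not the same in all of them: the glycolytic enzyme Eno3 was above it per kilobase in 5 of the 12 tumors, and in the mean of the isotype-treated obese group (23.6 against 10.1 CPM per kilobase). Acta1 (chr8:123891769-123894751, minus strand), the actin of the thin filament, measured 4.21, 119.8 and 109.8 CPM under isotype, then 1.27, 59.5 and 98.8 under anti–PD-1 for nonobese mice, and 3.53, 4.06 and 38.96 under isotype, then 9.87, 84.01 and 184 under anti–PD-1 for obese mice. The lowest and highest tumors, tumor 1 of the anti–PD-1–treated nonobese group and tumor 3 of the anti–PD-1–treated obese group, differed 134-fold when 2 counts were added to each. Every pair of groups overlapped, because each group held a tumor below 10 CPM.

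The 3 fast myosin heavy chain genes lie next to each other on chromosome 11, in the order Myh2 (chr11:67171027-67197517, plus strand), Myh1 (chr11:67200052-67224575, plus strand) and Myh4 (chr11:67238029-67260446, plus strand). Myh4, the chain of the fastest fibers, measured 1.03, 97.7 and 90.03 CPM in isotype-treated nonobese tumors, 0.762, 55.5 and 110.5 in anti–PD-1–treated nonobese tumors, 1.56, 2.03 and 38.5 in isotype-treated obese tumors and 5.64, 61.5 and 163 in anti–PD-1–treated obese tumors. Myh1, the IIx chain, measured 4.53, 32.7 and 32.6 CPM under isotype, then 0.356, 25.6 and 45.8 under anti–PD-1 for nonobese mice, and 0.967, 2.59 and 21.01 under isotype, then 10.5, 44.6 and 97.2 under anti–PD-1 for obese mice. Both genes were above 20 CPM in the same 7 tumors, and Myh4 was the higher of the 2 genes per kilobase of exon, at 8.69 against 4.18 CPM on average. Myh2, the IIa chain of fast oxidative fibers, measured 1.28, 5.79 and 8.63 CPM in isotype-treated nonobese tumors, 0.102, 4.55 and 5.13 in anti–PD-1–treated nonobese tumors, 0.463, 0.839 and 2.86 in isotype-treated obese tumors and 1.90, 8.95 and 11.8 in anti–PD-1–treated obese tumors. Per kilobase it averaged 0.611 CPM, the lowest level of the 3. A part of the transcripts of these genes is shared between copies: 9.73% of the 100-base stretches of Myh1, 9.17% of Myh2 and 3.85% of Myh4 occur in another gene, so a small number of their reads could have been split or lost in counting.

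The slow myosin heavy chain was almost absent. Myh7 had 1, 1 and 1 counts under isotype, then 0, 1 and 3 under anti–PD-1 for nonobese mice, and 0, 0 and 0 under isotype, then 0, 1 and 0 under anti–PD-1 for obese mice, in libraries of at least 14022929 counts. Its light chains were low as well: Myl3 had 1 count in a single tumor and 0 in the other 11, and Myl2 had 3, 12 and 4 counts in isotype-treated nonobese tumors, 7, 20 and 2 in anti–PD-1–treated nonobese tumors, 6, 12 and 9 in isotype-treated obese tumors and 3, 5 and 5 in anti–PD-1–treated obese tumors. At 0 to 3 counts, Myh7 was too low to compare its order over the tumors with that of the fast chains. Mylpf, the fast counterpart of Myl2, measured 3.15, 19.3 and 17.6 CPM under isotype, then 2.39, 10.5 and 22.1 under anti–PD-1 for nonobese mice, and 2.15, 3.64 and 7.35 under isotype, then 5.99, 20.7 and 33.5 under anti–PD-1 for obese mice. Myl1, the fast essential light chain, measured 0.482, 13.8 and 10.6 CPM in isotype-treated nonobese tumors, 0.203, 8.38 and 12.4 in anti–PD-1–treated nonobese tumors, 0.210, 1.47 and 3.96 in isotype-treated obese tumors and 0.987, 9.39 and 24.95 in anti–PD-1–treated obese tumors. Tumor 1 was the lowest for it in all 4 groups.

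Among the counts of the 3 fast chains, whose exon lengths are 6016 to 7137 bases, Myh4 held the largest share in 9 of the 12 tumors, as the plot of myosin shares shows. Its share was 15.02, 71.7 and 68.6% under isotype, then 62.5, 64.8 and 68.4 under anti–PD-1 for nonobese mice, and 52.1, 37.2 and 61.7 under isotype, then 31.2, 53.4 and 59.9 under anti–PD-1 for obese mice. The exceptions were tumor 1 of the isotype-treated nonobese group, where Myh1 held 66.2% (exact 95% binomial interval 59.4% to 72.5%, 213 counts), tumor 2 of the isotype-treated obese group and tumor 1 of the anti–PD-1–treated obese group, where Myh1 held 58.2% (51.9% to 64.3%, 256 counts). In the isotype-treated obese tumor 2 the shares of Myh1 (47.4%, interval 36.0% to 59.1%) and Myh4 (37.2%, interval 26.5% to 48.9%) overlapped at 78 counts. In the 7 tumors with at least 1307 counts on the 3 genes, the share of Myh4 lay between 53.4% and 71.7%, and that of Myh2 between 3.18% and 7.78%. These intervals cover counting error only, since the reads carried no molecular identifiers.

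**Figure D2:**
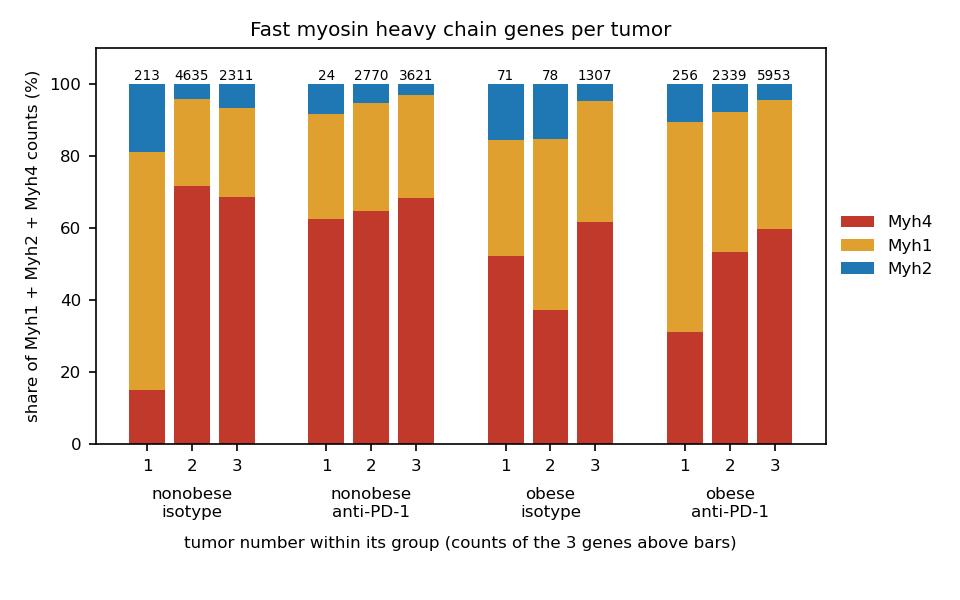
Share of Myh4, Myh1 and Myh2 in the counts of the 3 genes, in percent (stacked bars), for each tumor of the 4 groups, with the number of counts above each bar. Myh4 takes 53.4% to 71.7% where counts are plentiful, and Myh1 takes the largest share in tumor 1 of the isotype-treated nonobese group.

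The fast fiber genes summed to higher and more variable levels than the slow ones, a difference that was not tested. The 13 fast genes summed to 17.1, 320.1 and 275 CPM in isotype-treated nonobese tumors, 8.44, 193 and 365 in anti–PD-1–treated nonobese tumors, 9.80, 19.5 and 123 in isotype-treated obese tumors and 39.6, 244 and 546 in anti–PD-1–treated obese tumors. The 8 slow genes summed to 5.20, 7.70 and 10.5 CPM under isotype, then 5.18, 7.95 and 9.41 under anti–PD-1 for nonobese mice, and 4.54, 6.09 and 7.26 under isotype, then 5.92, 8.90 and 14.7 under anti–PD-1 for obese mice. The slow sum thus stayed between 4.54 and 14.7 CPM while the fast sum ran from 8.44 to 545.7 CPM. Of the counts of both lists together, the fast genes held 76.7, 97.7 and 96.3% in isotype-treated nonobese tumors, 61.9, 96.04 and 97.5 in anti–PD-1–treated nonobese tumors, 68.3, 76.2 and 94.4 in isotype-treated obese tumors and 87.00, 96.5 and 97.4 in anti–PD-1–treated obese tumors. This share was at least 94.4% in 7 tumors and lay between 61.9% and 87.0% in the other 5. Per kilobase of exon it ranged from 68.5% to 97.9%. With only the 7 matched pairs of fast and slow versions, it ranged from 52.1% in tumor 1 of the anti–PD-1–treated nonobese group to 98.5% in tumor 3 of the anti–PD-1–treated obese group. In the 5 tumors with a share of 87.0% or less, the slow troponin Tnnt1 alone gave much of the slow sum. It was 3.47 of 5.20 CPM (isotype) and 4.47 of 5.18 (anti–PD-1) in nonobese tumors 1. In obese mice it was 2.36 of 4.54 and 3.22 of 6.09 (isotype, tumors 1 and 2) and 3.45 of 5.92 (anti–PD-1, tumor 1). Whether the mix of fiber types differed was not tested.

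**Figure D3:**
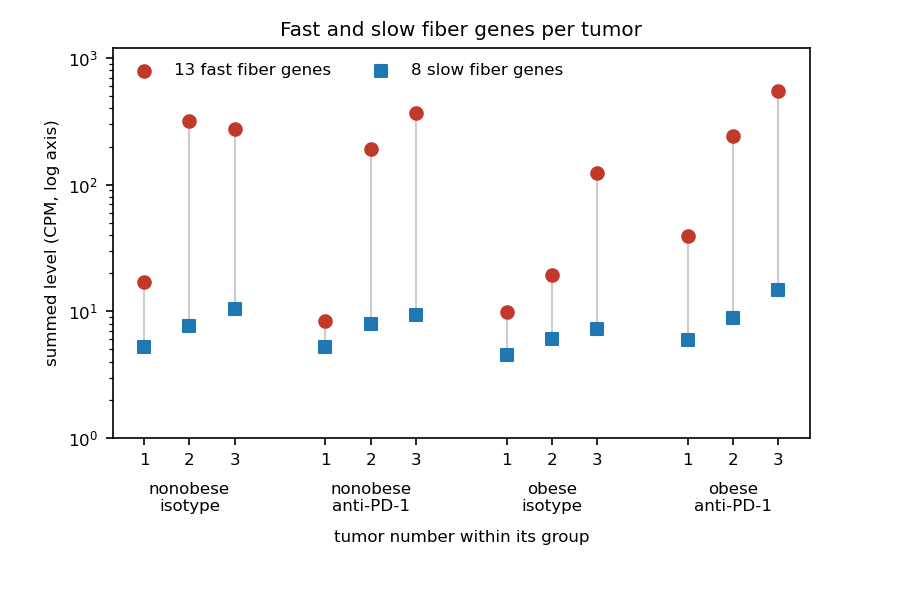
Summed CPM of the 13 fast (circles) and 8 slow (squares) fiber genes in each tumor, on a log axis, by group. The fast sums span 8.44 to 545.7 CPM, and the slow sums stay between 4.54 and 14.7 CPM.

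The troponin genes showed this contrast gene by gene. Tnnt3, the fast troponin T that ties the complex to tropomyosin, measured 0.899, 33.8 and 27.4 CPM under isotype, then 0.712, 16.7 and 30.2 under anti–PD-1 for nonobese mice, and 0.463, 2.73 and 10.1 under isotype, then 3.03, 22.5 and 45.8 under anti–PD-1 for obese mice. Its slow counterpart Tnnt1 measured 3.47, 3.50 and 3.35 CPM in isotype-treated nonobese tumors, 4.47, 3.77 and 1.52 in anti–PD-1–treated nonobese tumors, 2.36, 3.22 and 3.01 in isotype-treated obese tumors and 3.45, 3.34 and 2.97 in anti–PD-1–treated obese tumors. Tnnt3 thus ran from 0.463 to 45.8 CPM, and Tnnt1 stayed between 1.52 and 4.47 CPM. Tnni2, the fast inhibitory subunit, measured 0.321, 11.99 and 10.6 CPM under isotype, then 0.305, 6.31 and 13.02 under anti–PD-1 for nonobese mice, and 0.505, 0.490 and 2.96 under isotype, then 0.705, 6.39 and 16.9 under anti–PD-1 for obese mice. Tnni1, the slow inhibitory subunit, measured 0.578, 0.265 and 0.568 CPM in isotype-treated nonobese tumors, 0.254, 0.402 and 0.624 in anti–PD-1–treated nonobese tumors, 0.337, 0.490 and 0.621 in isotype-treated obese tumors and 0.987, 0.443 and 0.365 in anti–PD-1–treated obese tumors. Tnni1 lay between 0.254 and 0.987 CPM, whether Tnni2 was high or low.

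Tnnc2, the calcium-binding subunit of fast fibers, measured 0.450, 15.8 and 9.77 CPM under isotype, then 0.254, 8.10 and 13.2 under anti–PD-1 for nonobese mice, and 0, 0.420 and 4.01 under isotype, then 0.987, 8.36 and 19.02 under anti–PD-1 for obese mice. It had 0 counts in tumor 1 of the isotype-treated obese group. Exons of Ube2c on the opposite strand cover 74.0% of its exon length, and since the strand setting of the counting was not given in the sources used here, its level is uncertain. The slow and cardiac subunit Tnnc1 had 5, 1 and 1 counts in isotype-treated nonobese tumors, 1, 1 and 4 in anti–PD-1–treated nonobese tumors, 2, 0 and 5 in isotype-treated obese tumors and 0, 1 and 1 in anti–PD-1–treated obese tumors, at most 5 in any tumor.

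Among the genes of calcium handling, Atp2a1, Ryr1, Cacna1s and Casq1 were lowest in tumor 1 of each group, and the slow calsequestrin Casq2 in 3 of the 4 groups. Atp2a1, the calcium pump that refills the sarcoplasmic reticulum of fast fibers, measured 1.99, 49.2 and 35.5 CPM under isotype, then 0.915, 27.8 and 62.3 under anti–PD-1 for nonobese mice, and 1.93, 2.80 and 16.4 under isotype, then 4.23, 31.9 and 65.6 under anti–PD-1 for obese mice. Ryr1, the release channel of that store, measured 1.03, 9.85 and 9.26 CPM in isotype-treated nonobese tumors, 0.762, 5.94 and 13.4 in anti–PD-1–treated nonobese tumors, 0.673, 0.839 and 5.63 in isotype-treated obese tumors and 1.83, 7.48 and 19.7 in anti–PD-1–treated obese tumors. Cacna1s, the voltage sensor that opens Ryr1, measured 0.931, 4.82 and 4.83 CPM under isotype, then 0.864, 3.43 and 5.75 under anti–PD-1 for nonobese mice, and 0.126, 0.140 and 2.15 under isotype, then 0.987, 2.95 and 7.98 under anti–PD-1 for obese mice. Exons of other genes on the opposite strand cover 21.9% of the exon length of Atp2a1 and 20.0% of that of Cacna1s. Casq1, which stores calcium in fast fibers, measured 0.931, 6.35 and 4.66 CPM in isotype-treated nonobese tumors, 1.02, 3.53 and 5.71 in anti–PD-1–treated nonobese tumors, 0.379, 0.699 and 2.43 in isotype-treated obese tumors and 1.06, 4.13 and 8.94 in anti–PD-1–treated obese tumors. Casq2, the slow and cardiac form, measured 0.514, 0.794 and 1.36 CPM under isotype, then 0.0508, 1.11 and 1.92 under anti–PD-1 for nonobese mice, and 1.47, 1.12 and 0.430 under isotype, then 0.846, 1.18 and 1.23 under anti–PD-1 for obese mice. Casq2 was higher in tumor 1 than in tumor 3 of the isotype-treated obese group, the reverse of Casq1. Pvalb, a calcium buffer of fast fibers, measured 0.0642, 4.79 and 2.95 CPM in isotype-treated nonobese tumors, 0.508, 2.97 and 6.47 in anti–PD-1–treated nonobese tumors, 0.168, 0.0699 and 2.24 in isotype-treated obese tumors and 0.564, 4.43 and 8.26 in anti–PD-1–treated obese tumors. Trdn, triadin, which couples calsequestrin to Ryr1, was low, with 1, 16 and 18 counts under isotype, then 2, 15 and 6 under anti–PD-1 for nonobese mice, and 0, 0 and 11 under isotype, then 0, 23 and 11 under anti–PD-1 for obese mice. It reached at least 1 CPM in 2 of the 12 tumors.

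The myosin-binding proteins C did not divide by fiber type. Mybpc2, the fast form, measured 0.514, 15.6 and 13.3 CPM in isotype-treated nonobese tumors, 0, 10.4 and 19.7 in anti–PD-1–treated nonobese tumors, 0.379, 0.140 and 5.49 in isotype-treated obese tumors and 1.13, 10.3 and 24.04 in anti–PD-1–treated obese tumors. Mybpc1, the form named for slow fibers and placed in the slow list, measured 0.353, 2.73 and 4.83 CPM under isotype, then 0, 1.95 and 4.95 under anti–PD-1 for nonobese mice, and 0.0421, 0.420 and 2.53 under isotype, then 0.423, 3.59 and 9.90 under anti–PD-1 for obese mice. Mybpc1 was high and low in the same tumors as the fast genes, and it made up 9.90 of the 14.7 CPM of slow genes in tumor 3 of the anti–PD-1–treated obese group. Fast fibers are also known to contain this protein.

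At the Z disc, Actn3, the alpha-actinin of fast fibers, measured 1.45, 13.2 and 11.8 CPM in isotype-treated nonobese tumors, 0.915, 12.3 and 18.5 in anti–PD-1–treated nonobese tumors, 0.631, 1.61 and 5.82 in isotype-treated obese tumors and 2.89, 10.4 and 26.96 in anti–PD-1–treated obese tumors. Actn2, the alpha-actinin of all fibers and of heart, measured 0.514, 8.38 and 9.54 CPM under isotype, then 0.559, 5.75 and 8.65 under anti–PD-1 for nonobese mice, and 0.799, 2.24 and 4.34 under isotype, then 1.34, 8.90 and 15.4 under anti–PD-1 for obese mice. Both were lowest in the same 5 tumors and Actn2 did not behave like the slow genes. Xirp2, an actin-binding protein of the Z disc and of sites of fiber damage, ranged from 0.102 to 43.2 CPM. Myot (myotilin, which cross-links actin) had 0, 65 and 13 counts in isotype-treated nonobese tumors, 2, 40 and 61 in anti–PD-1–treated nonobese tumors, 4, 2 and 10 in isotype-treated obese tumors and 4, 28 and 55 in anti–PD-1–treated obese tumors. The remaining Z disc genes Ldb3, Myoz1 and Tcap reached at most 3.61, 3.75 and 3.70 CPM.

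Among the scaffold genes, Ttn, the molecular spring that spans from Z disc to M line, measured 5.56, 20.5 and 27.1 CPM under isotype, then 3.41, 15.99 and 30.6 under anti–PD-1 for nonobese mice, and 3.41, 3.99 and 15.3 under isotype, then 3.24, 13.8 and 42.7 under anti–PD-1 for obese mice. Des, the intermediate filament desmin (chr1:75360329-75368579, plus strand), which smooth muscle and pericytes also make, measured 17.7, 53.6 and 56.7 CPM in isotype-treated nonobese tumors, 18.1, 35.6 and 50.03 in anti–PD-1–treated nonobese tumors, 13.5, 11.9 and 25.1 in isotype-treated obese tumors and 16.6, 33.4 and 68.8 in anti–PD-1–treated obese tumors. The lowest tumor still held 11.9 CPM of Des, and of the 35 tested genes only Eno3, Tnnt1, Tnni1 and Pygm had a smaller ratio between the highest and the lowest of the 12 tumors (5.73 for Des). Neb, the ruler of the thin filament, ranged from 0.407 to 17.6 CPM. Klhl41, which stabilizes Neb, ranged from 0.321 to 5.35 CPM.

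Among the genes of energy supply, Ckm and Mb followed the fast genes, Pygm did so over a narrower range, and Eno3 did not. Ckm, the muscle creatine kinase that buffers ATP, measured 2.12, 31.98 and 22.3 CPM under isotype, then 1.83, 15.9 and 32.8 under anti–PD-1 for nonobese mice, and 1.85, 2.59 and 9.60 under isotype, then 3.60, 19.7 and 42.5 under anti–PD-1 for obese mice. Mb, the oxygen store myoglobin, measured 0, 2.06 and 1.48 CPM in isotype-treated nonobese tumors, 0.152, 2.07 and 2.41 in anti–PD-1–treated nonobese tumors, 0.337, 0.140 and 1.10 in isotype-treated obese tumors and 0.141, 0.984 and 5.16 in anti–PD-1–treated obese tumors, but exons of other genes on the opposite strand cover 31.9% of its exon length. Eno3, the muscle enolase of glycolysis (chr11:70657202-70662513, plus strand), measured 51.97, 56.5 and 55.7 CPM under isotype, then 58.4, 55.6 and 44.6 under anti–PD-1 for nonobese mice, and 45.5, 44.3 and 33.2 under isotype, then 53.4, 50.2 and 59.8 under anti–PD-1 for obese mice. Eno3 had the second highest level per kilobase (29.2 CPM) and differed 1.80-fold between the lowest and the highest of the 12 tumors. Pygm (chr19:6384399-6398459, plus strand), which releases glucose from glycogen, measured 8.93, 18.5 and 14.2 CPM in isotype-treated nonobese tumors, 10.8, 15.3 and 16.1 in anti–PD-1–treated nonobese tumors, 6.86, 5.95 and 9.79 in isotype-treated obese tumors and 12.3, 13.5 and 23.4 in anti–PD-1–treated obese tumors, a 3.85-fold range. Both Eno3 and Pygm thus kept much of their level in the tumors numbered 1, where Myh4 was at 1.03, 0.762, 1.56 and 5.64 CPM. Which cells made them there was not tested. The mitochondrial creatine kinase Ckmt2 had 0 counts in tumor 1 of all 4 groups and in tumor 2 of the isotype-treated obese group, and at most 27 elsewhere.

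The myogenic transcription factors were at the limit of detection. Myod1, which commits cells to the muscle lineage, had 2, 3 and 1 counts under isotype, then 2, 3 and 4 under anti–PD-1 for nonobese mice, and 0, 0 and 0 under isotype, then 0, 0 and 0 under anti–PD-1 for obese mice. All 6 obese tumors had 0 counts, and the nonobese tumors had 1 to 4, so the values lie around the 3 counts taken as the floor. Myog, which drives the formation of fibers, had 3, 4 and 6 counts in isotype-treated nonobese tumors, 0, 2 and 5 in anti–PD-1–treated nonobese tumors, 0, 0 and 4 in isotype-treated obese tumors and 0, 0 and 2 in anti–PD-1–treated obese tumors. Markers of muscle satellite cells, the resident stem cells of muscle, were absent or nearly so, with 0 counts of Pax7, Myf5 and Calcr in every tumor.

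The spread between tumors of one group was measured as the ratio of the highest to the lowest tumor after 2 counts were added. The median ratio over the 35 genes was 11.8 in isotype-treated nonobese, 15.6 in anti–PD-1–treated nonobese, 6.43 in isotype-treated obese and 11.3 in anti–PD-1–treated obese mice. Over all 13095 genes tested it was 1.19, 1.31, 1.35 and 1.23. A ratio above 4 was found for 29, 29, 26 and 30 of the 35 genes, against 2.27%, 3.54%, 1.76% and 2.61% of all genes. The widest ratios of the 35 genes were 89.5 (Myh4), 194.7 (Mybpc2), 48.8 (Tnnc2) and 28.1 (Myh4) in the 4 groups. These extremes depend on the counts added: with 0.5 in place of 2, the widest ratios of the 35 genes were 129, 776, 192 and 35.2.

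The median spread was also wider for the fast than for the slow genes, again without a test of the difference. The median ratio of the 13 fast genes was 25.4, 37.2, 11.1 and 14.5 in the 4 groups. That of the 4 slow genes that could be tested (Tnni1, Tnnt1, Casq2 and Mybpc1) was 2.33, 8.004, 2.33 and 1.91. Among these 4, Mybpc1 spread like the fast genes, with ratios of 11.8, 49.6, 20.8 and 17.7, and Casq2 reached 13.2 in anti–PD-1–treated nonobese mice. The biological coefficient of variation, the replicate spread that edgeR estimates beyond counting error, had a median of 85.2% over the 35 genes, 98.5% over the fast genes and 49.4% over the slow genes, against 15.1% over all genes tested. It was highest for Tcap, which caps titin at the Z disc, at 125%, and lowest for Eno3 at 12.7%, followed by Pygm at 26.2%, Tnnt1 at 28.1% and Tnni1 at 36.5%. For 34 of the 35 genes the widest ratio within a group exceeded the ratio between the highest and the lowest group mean, as it did for 92.2% of all genes.

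**Figure D4:**
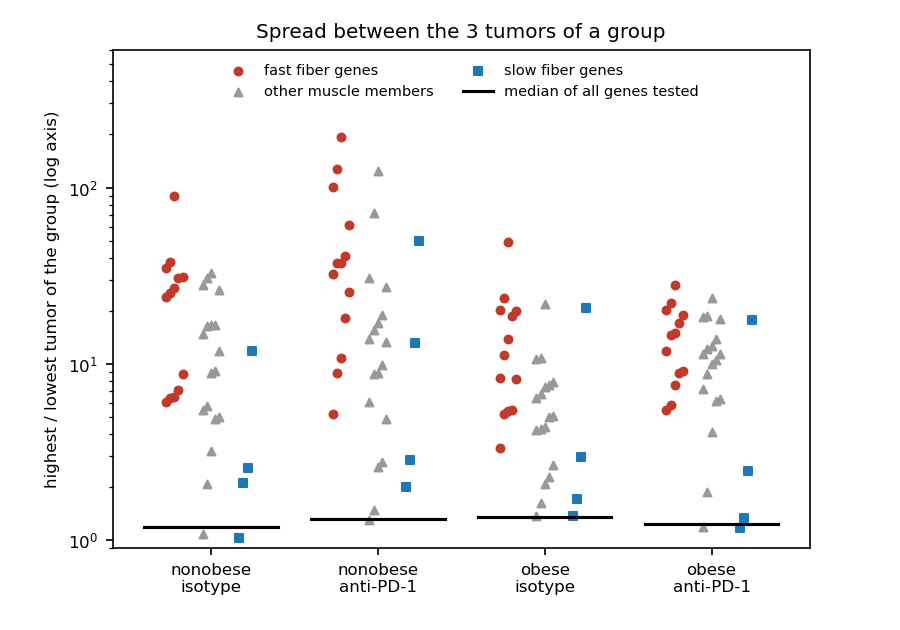
Ratio of the highest to the lowest of the 3 tumors of each group (log axis, 2 counts added) for the 35 tested muscle genes: fast (circles), slow (squares) and neither (triangles), with the median of all 13095 genes as a line. The fast genes have medians of 11.1 to 37.2, and the line lies between 1.19 and 1.35.

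To ask whether PD-1 blockade altered these genes in nonobese mice, anti–PD-1–treated and isotype-treated tumors were compared with the quasi-likelihood F-test of edgeR. No change was detected in a muscle gene: 0 of 35 met the rule of the study (more than a 2-fold change and p below 0.05 before adjustment) in either direction, and 0 had an unadjusted p below 0.05. By that rule 0.115% of all genes were higher and 2.31% lower, and 0% passed an FDR (adjusted p) below 0.05. DESeq2 gave an FDR for 34 of the 35, and 0 of these were below 0.05. The median log2 fold change of the 35 was -0.08, with 14 genes above 0 and 21 below, against a median of 0.02 for all genes tested. That median was above 0 without isotype-treated tumor 2 (0.31), isotype-treated tumor 3 (0.25) or anti–PD-1–treated tumor 1 (0.40), and it was -0.51 without isotype-treated tumor 1 and -0.80 without anti–PD-1–treated tumor 3. The smallest p-values belonged to Myh2 (log2 fold change -0.65, SE 0.93, adjusted p = 0.95), Trdn (log2 fold change -0.70, SE 1.20, adjusted p = 0.953), Des (log2 fold change -0.30, SE 0.51, adjusted p = 0.954), Myot (log2 fold change 0.60, SE 1.08, adjusted p = 0.957) and Acta1 (log2 fold change -0.55, SE 1.26, adjusted p = 0.968). All 35 intervals of 95% included 0, and their median width was 4.35 log2 units. For Myh4 the difference was -0.17 on the log2 scale (SE 1.44, 95% interval -3.27 to 2.93, unadjusted p = 0.906, adjusted p = 0.988).

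In obese mice, all 35 genes had a positive estimate with anti–PD-1, and 7 passed the rule as higher, none as lower. By the same rule 2.24% of all genes were higher and 0.206% lower, and 0% passed an FDR below 0.05. The 7 were Pygm, the myosin genes Mylpf and Myh2, desmin (Des), the calcium genes Casq1 and Cacna1s, and the fast alpha-actinin Actn3. None of the 35 reached an FDR below 0.05 in edgeR, 8 had an unadjusted p below 0.05, and DESeq2 gave 1 gene at an FDR below 0.05, Pygm (0.0399). The median log2 fold change was 2.21, against -0.01 for all genes tested, with 2.44 for the 13 fast genes and 0.23 for the 4 slow genes tested. The median of the muscle genes tested was 1.18 without anti–PD-1–treated obese tumor 3, 1.73 and 1.88 without isotype-treated obese tumors 1 and 2, and 3.63 without isotype-treated obese tumor 3. Comparisons of this design share tumors with each other, so their values are not independent.

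Pygm did not overlap between the groups. The 3 anti–PD-1–treated obese tumors, at 12.3, 13.5 and 23.4 CPM, all lay above the isotype-treated ones, at 6.86, 5.95 and 9.79 CPM. The difference was 1.12 on the log2 scale (SE 0.31, 95% interval 0.46 to 1.78, unadjusted p = 0.00277, adjusted p = 0.286). Eno3 also did not overlap, with 53.4, 50.2 and 59.8 CPM against 45.5, 44.3 and 33.2 CPM. Its difference was 0.41 on the log2 scale (SE 0.14, 95% interval 0.11 to 0.71, unadjusted p = 0.0104, adjusted p = 0.457), less than the fold change asked for by the rule. The share of all genes without overlap was not counted, so no conclusion is drawn from a lack of overlap, here or below. The other 6 genes that passed the rule overlapped between the groups, because tumor 3 of the isotype-treated group was above tumor 1 of the anti–PD-1–treated group. For Mylpf the difference was 2.20 on the log2 scale (SE 0.81, 95% interval 0.45 to 3.95, unadjusted p = 0.0175, adjusted p = 0.521). For Myh2 it was 2.44 on the log2 scale (SE 1.00, 95% interval 0.28 to 4.60, unadjusted p = 0.0294, adjusted p = 0.586). Without anti–PD-1–treated obese tumor 3 these differences were 1.63 and 1.98 on the log2 scale, and without isotype-treated obese tumor 3 they were 2.85 and 3.61.

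Acta1 and the fast myosin Myh4 did not pass the rule although their estimates were as large. The difference for Myh4 was 2.44 on the log2 scale (SE 1.55, 95% interval -0.90 to 5.77, unadjusted p = 0.139, adjusted p = 0.742), and for Acta1 2.57 on the log2 scale (SE 1.36, 95% interval -0.36 to 5.49, unadjusted p = 0.0805, adjusted p = 0.697). The slow genes had estimates near 0: Tnnt1 (log2 fold change 0.19, SE 0.34, adjusted p = 0.924), Tnni1 (log2 fold change 0.27, SE 0.56, adjusted p = 0.935) and Casq2 (log2 fold change 0.12, SE 0.75, adjusted p = 0.982), whereas Mybpc1 stood with the fast genes (log2 fold change 2.21, SE 1.33, adjusted p = 0.725). The difference between fast and slow genes in this response was not tested.

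The count of 7 rested on single tumors. It fell to 0 without tumor 3 of the anti–PD-1–treated obese group or without tumor 2 of the isotype-treated obese group, to 1 without isotype-treated obese tumor 1 and to 4 without anti–PD-1–treated obese tumor 2. It rose to 25 without isotype-treated obese tumor 3 and to 22 without anti–PD-1–treated obese tumor 1. Leaving out tumors outside the comparison also changed the count: it was 14 without tumor 1 of the isotype-treated and 12 without tumor 1 of the anti–PD-1–treated nonobese group. With the 4 tumors numbered 1 left out together, 28 genes passed the rule and 2 of the 35 had an FDR below 0.05. However, this choice was made after the values were seen, and it removes the lowest tumor of each group for most of these genes. The share of all genes that passed without these 4 tumors is not given here, so no conclusion is drawn from such counts, here or below.

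**Figure D5:**
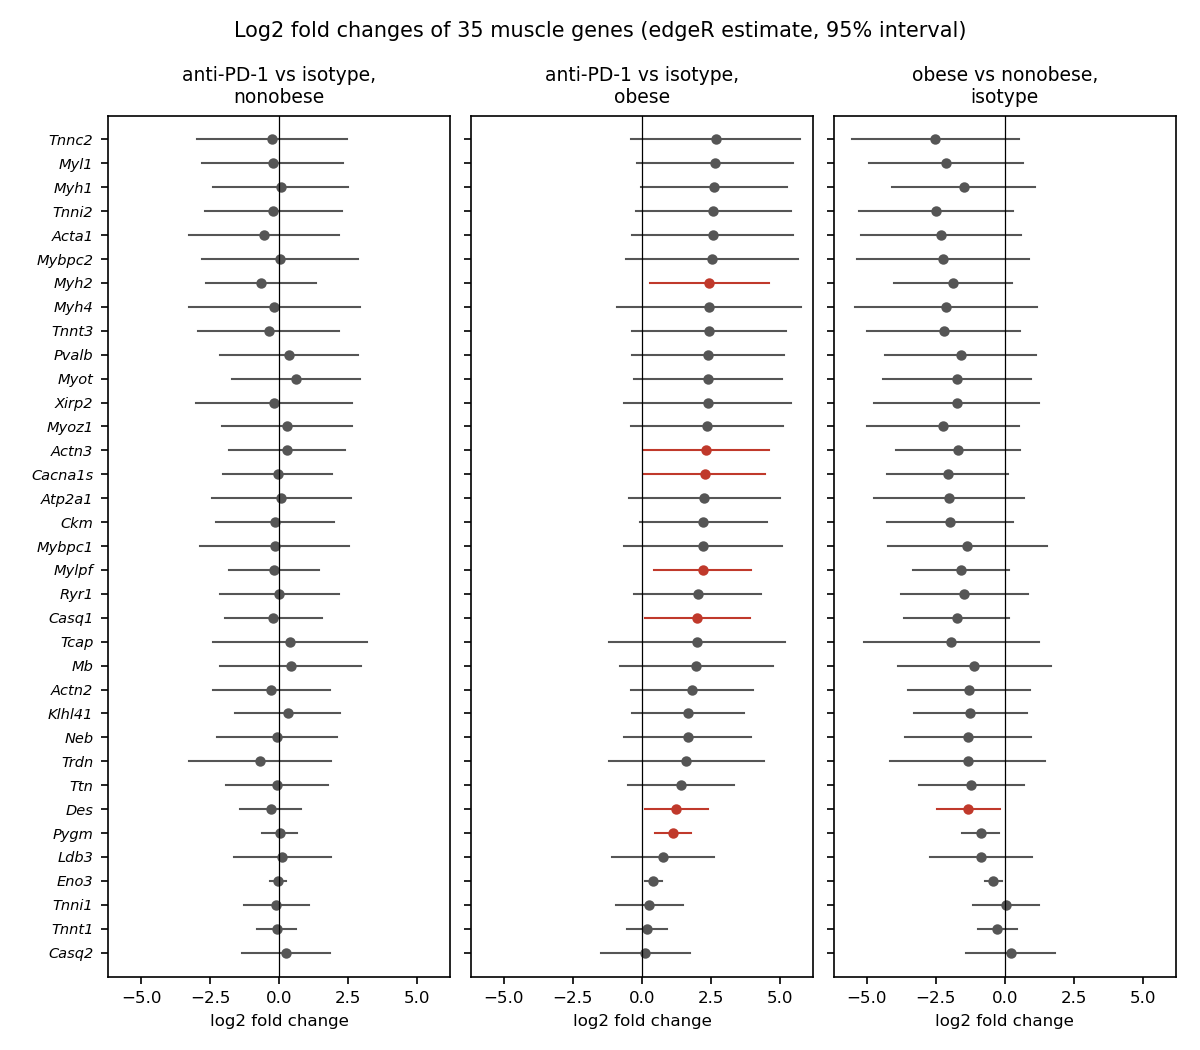
Log2 fold change (points) with its 95% interval (lines) for the 35 tested muscle genes in 3 comparisons, from edgeR, with genes that met the rule of the study in red. The estimates in obese mice lie between 0.12 and 2.66, with 27 of 35 intervals including 0.

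Isotype-treated obese tumors were compared with isotype-treated nonobese tumors to see the difference between diets without PD-1 blockade. Des was the only one of the 35 genes that passed the rule, as lower, and none passed as higher. The rule was passed by 1.12% of all genes as lower and 0.244% as higher, and 0% had an FDR below 0.05. Des was at 13.5, 11.9 and 25.1 CPM in obese against 17.7, 53.6 and 56.7 CPM in nonobese mice, so the groups overlapped, and the difference was -1.33 on the log2 scale (SE 0.53, 95% interval -2.47 to -0.19, unadjusted p = 0.0253, adjusted p = 0.326). Smooth muscle markers, whose tissue also makes Des, summed to 142, 76.8 and 123 CPM in the same obese tumors against 179, 179.7 and 179.5 CPM in the nonobese ones, with no overlap, and 1 of 6 of them passed as lower. Their part in the difference in Des was not tested. Of the 35 muscle genes, 33 had an estimate below 0, with a median of -1.60 against 0.01 for all genes tested. The median was -3.12 without isotype-treated obese tumor 3 and -2.18 without isotype-treated nonobese tumor 1, and it was nearest to 0 without isotype-treated obese tumor 1 (-1.22). DESeq2 gave an FDR for only 23 of the 35, and none of these was below 0.05. None reached an FDR below 0.05 in edgeR, and 3 had an unadjusted p below 0.05.

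The other 2 were Eno3 and Pygm, whose changes were smaller than the rule asks. Eno3 was lower in every obese tumor than in every nonobese tumor (33.2 to 45.5 against 52.0 to 56.5 CPM), with a difference of -0.42 on the log2 scale (SE 0.14, 95% interval -0.71 to -0.12, unadjusted p = 0.00937, adjusted p = 0.274). Pygm differed by -0.88 on the log2 scale (SE 0.30, 95% interval -1.53 to -0.22, unadjusted p = 0.0126, adjusted p = 0.286), with overlap between 8.93 and 9.79 CPM. Cacna1s (log2 fold change -2.08, SE 1.01, adjusted p = 0.397) and Casq1 (log2 fold change -1.75, SE 0.88, adjusted p = 0.402) followed by p-value. Tnnt1 had no overlap either (2.36 to 3.22 against 3.35 to 3.50 CPM) with a log2 difference of only -0.27.

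The count of 1 in this comparison also moved with single tumors. It was 20 without isotype-treated obese tumor 3, 15 without isotype-treated nonobese tumor 1, 5 without anti–PD-1–treated nonobese tumor 1 and 4 without anti–PD-1–treated obese tumor 1. It was 0 without isotype-treated nonobese tumor 2 or 3 and without isotype-treated obese tumor 1 or 2. With all tumors numbered 1 left out, it was 20.

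Under anti–PD-1, no difference between obese and nonobese mice was detected for these genes with the settings used throughout. None of the 35 passed the rule in either direction, and 0 had an unadjusted p below 0.05, an FDR below 0.05 in edgeR or one in DESeq2. A few genes passed the rule under some of the alternatives given in the closing section. Over all genes, 3.69% passed as higher and 0.565% as lower, and 0.382% had an FDR below 0.05. The median log2 fold change of the 35 was 0.39. Myh2 (log2 fold change 1.21, SE 0.93, adjusted p = 0.736), Mylpf (log2 fold change 0.79, SE 0.76, adjusted p = 0.813) and Myh1 (log2 fold change 1.09, SE 1.14, adjusted p = 0.834) had the smallest p-values, followed by Mybpc1 (log2 fold change 1.02, SE 1.24, adjusted p = 0.864) and Actn2 (log2 fold change 0.78, SE 0.98, adjusted p = 0.87). All 35 intervals included 0. The median changed sign without 1 tumor, to -0.46 without obese tumor 3 and to -0.10 without nonobese tumor 1, and it was 1.11 without nonobese tumor 3 and 0.83 without obese tumor 1.

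Whether the response to anti–PD-1 differed between obese and nonobese mice was tested directly as an interaction. Pygm, Myh2 and Mylpf passed the rule with a larger response in obese mice and none with a smaller one, where 4.93% of all genes passed in the first direction and 0.832% in the second. The share of all genes with an FDR below 0.05 was 0%, 0 of the 35 genes reached it in edgeR or DESeq2, and 4 had an unadjusted p below 0.05. The difference between the responses was 1.10 on the log2 scale (SE 0.43, 95% interval 0.18 to 2.02, unadjusted p = 0.0223, adjusted p = 0.301) for Pygm. It was 3.09 on the log2 scale (SE 1.36, 95% interval 0.16 to 6.02, unadjusted p = 0.0401, adjusted p = 0.356) for Myh2 and 2.39 on the log2 scale (SE 1.11, 95% interval 0.00 to 4.77, unadjusted p = 0.0497, adjusted p = 0.387) for Mylpf. Leaving out 1 tumor, it ran from 0.76 to 1.35 for Pygm, from 2.56 (without anti–PD-1–treated nonobese tumor 1) to 4.26 (without isotype-treated obese tumor 3) for Myh2, and from 1.82 (without anti–PD-1–treated obese tumor 3) to 3.24 (without anti–PD-1–treated nonobese tumor 3) for Mylpf. Eno3 (log2 fold change 0.46, SE 0.19, adjusted p = 0.339) and Des (log2 fold change 1.53, SE 0.74, adjusted p = 0.408) followed by p-value. The count of 3 was 15 without isotype-treated obese tumor 3, 10 without isotype-treated nonobese tumor 1, 6 without anti–PD-1–treated nonobese tumor 3 and 5 without anti–PD-1–treated obese tumor 1. It was 0 without isotype-treated nonobese tumor 2, isotype-treated obese tumor 2, anti–PD-1–treated obese tumor 3, and 1 without isotype-treated nonobese tumor 3, anti–PD-1–treated nonobese tumor 1, isotype-treated obese tumor 1, anti–PD-1–treated obese tumor 2. With all tumors numbered 1 left out it was 17. It also rose with the tumor number as a block and fell with DESeq2, as given in the closing section.

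A further list of 60 genes of muscle, from the sarcomere to the fetal and neonatal myosins and the glycolysis of fibers, was read from the same fit, and 46 of them were tested. In obese mice 3 of the 46 rose under anti–PD-1 by the rule (Pgam2, Actc1 and Myom3; 6.52%, against 2.24% of all genes) and none fell. Pgam2, the muscle phosphoglycerate mutase, did not overlap between the groups (log2 fold change 3.41, SE 1.17, adjusted p = 0.473). In nonobese mice 1 fell with anti–PD-1, the embryonic myosin Myh3 (log2 fold change -1.05, SE 0.46, adjusted p = 0.924), a share of 2.17% that is close to the 2.31% of all genes. Between the diets under isotype, 4 were lower in obese mice (Tnnt2, Pgam2, Myh3 and Actc1; 8.70%, against 1.12% of all genes) and none was higher. Under anti–PD-1 none passed in either direction, and the response differed for 3 (Myh3, Actc1 and Pgam2), again 6.52%, near the 4.93% of all genes. Its median on the log2 scale was 0.48 in the obese response and -0.51 between the diets under isotype. Fbxo32, a ubiquitin ligase of muscle wasting that other tissues also make, had the smallest p-value of this list between the diets under isotype (log2 fold change 0.66, SE 0.15, adjusted p = 0.141), and was also higher in obese mice under anti–PD-1 (log2 fold change 0.60, SE 0.15, adjusted p = 0.129). Its groups did not overlap in either comparison, but both changes were less than the rule asks. DESeq2 gave it an adjusted p of 0.0101 under isotype and 0.0217 under anti–PD-1.

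Markers of other tissues were read in the same tumors and the same fit. The 10 adipocyte markers summed to 26.1, 54.1 and 46.2 CPM under isotype, then 20.4, 21.7 and 31.8 under anti–PD-1 for nonobese mice, and 22.3, 29.9 and 26.2 under isotype, then 80.7, 44.02 and 107 under anti–PD-1 for obese mice. In the obese response to anti–PD-1, 9 of the 10 rose by the rule (2.24% of all genes), and 4 fell in the nonobese response (2.31%). Between the diets, 5 were lower in obese mice under isotype (1.12%) and 9 were higher under anti–PD-1 (3.69%), and 9 passed in the difference between responses (4.93%). Tumor 1 of the anti–PD-1–treated obese group was high in adipocyte markers (80.7 CPM) while its muscle genes were low. In each of the other groups, however, tumor 1 was the lowest in these markers, as for most muscle genes. Tumor 3 of the anti–PD-1–treated obese group had the highest sum of all 12 for both the adipocyte markers (107 CPM) and the muscle genes (1109 CPM).

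The 7 fibroblast markers summed to 582, 2444 and 2764 CPM in isotype-treated nonobese tumors, 262, 527 and 529 in anti–PD-1–treated nonobese tumors, 996, 196 and 1073 in isotype-treated obese tumors and 415, 1409 and 1832 in anti–PD-1–treated obese tumors. Tumor 1 was the lowest in 3 of the 4 groups, as it was for most muscle genes, and tumor 2 was the lowest in isotype-treated obese mice. None passed in the obese response, 6 of 7 fell in the nonobese response, 1 was lower in obese mice under isotype, 4 were higher under anti–PD-1 and 6 passed in the difference between responses. Of all genes, 2.24% rose in the obese response, 2.31% fell in the nonobese response and 1.12% were lower in obese mice under isotype. Another 3.69% were higher under anti–PD-1 and 4.93% passed as higher in the difference. These shares also apply to the markers below. The 6 smooth muscle markers, which include Acta2 and Myh11, summed to 179, 179.7 and 179.5 CPM under isotype, then 109.8, 132 and 147 under anti–PD-1 for nonobese mice, and 142, 76.8 and 123 under isotype, then 80.3, 151 and 171 under anti–PD-1 for obese mice. Of these, 1 fell in the nonobese response, 1 was lower in obese mice under isotype, 2 passed in the difference between responses, and none passed in the other comparisons. The smooth muscle sum and the sum of endothelial markers were lowest in tumor 1 of each group except isotype-treated obese mice, where tumor 2 was the lowest.

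Of 5 T cell markers, 4 rose in the obese response, with sums of 1.01 to 1.48 CPM under isotype and 3.53 to 10.5 CPM under anti–PD-1. All 5 were higher in obese mice under anti–PD-1 and passed in the difference between responses, 1 fell in the nonobese response and 1 was lower in obese mice under isotype. The 7 heart markers summed to 0.430 to 4.09 CPM, with 2 to 5 of the 7 detected per tumor. Myh6 and Ryr2 had 0 counts in every tumor, whereas Actc1 and Tnnt2, which skeletal muscle also makes, had counts in all 12 and were both lower in obese mice under isotype. The 8 keratinocyte markers summed to 2.73 to 18.3 CPM, and of the 3 that could be tested 1 fell in the nonobese response, 1 was lower in obese mice under isotype and 1 passed as higher in the difference between responses. The 6 endothelial markers summed to 89.5 to 173 CPM, and 1 fell in the nonobese response, 1 was higher in obese mice under anti–PD-1 and 1 passed as higher in the difference between responses. None of the 7 melanoma markers passed in any of the 5 comparisons. Whether muscle, fat, connective tissue or skin in the sampled piece accounts for any part of the differences between tumors was not tested.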

How the data were processed

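RNA of 12 tumors, 3 per group, was sequenced by the authors from stranded poly(A) libraries (TruSeq Stranded mRNA) as single-end reads of 100 bp. Per their methods and processing notes they checked the reads with FastQC 0.11.5, aligned them to mm10 with STAR 2.7.0f and counted them per gene with HTSeq 0.9.1. The deposited values are raw counts, whole numbers without normalization. The strand setting and the annotation used for counting were not given in the sources used here.

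Columns were matched to tumors by name, and no 2 tumors held identical values. Counts were scaled by TMM, filtered with filterByExpr and fitted in edgeR 4.0.16 under R 4.3.3 (glmQLFit with legacy=TRUE, 4 group means, 8 residual degrees of freedom), with Benjamini-Hochberg adjustment over all 13095 genes tested. A gene passed the rule of the study with more than a 2-fold change and p below 0.05 before adjustment. Standard errors and 95% intervals were derived from the F statistic. Shares have exact (Clopper-Pearson) intervals, and the spread used a prior count of 2. Exon lengths and gene coordinates are from GENCODE M21 (GRCm38), and promoters from RefSeq (GRCm38.p6), which had an entry for 33 of the 42 genes.

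The 42 genes, the fast and slow lists, the further muscle list and the markers were chosen with earlier results of these data known. Values in every tumor are given for the actin, the myosins, the matched fast and slow pairs, a few further genes fixed by name and the 5 genes with the smallest p in each comparison. Of the further muscle genes, the 5 with the smallest p could be named. The code was tested on simulated data. Alternatives were DESeq2 1.42.0, RLE scaling, no filter, a mean CPM of at least 1, a model of the 6 tumors compared, the tumor number as a block, leaving out each tumor, a prior count of 0.5 for the spread, the 7 matched pairs or counts per kilobase for the fast share and the summed level without Acta1. Labels do not say more of the tumors of a group than that they are separate samples. The p-values therefore set a difference between groups against the spread between these tumors.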

Additional observations from a re-analysis of the deposited data

Results flagged for a closer look

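For 3 genes the response to anti–PD-1 differed between obese and nonobese mice by the interaction test of edgeR with more than a 2-fold difference and p below 0.05 before adjustment. These were 3 of 35 genes, against 4.93% of all genes tested that passed as higher, and leaving out 1 tumor gave 0 to 15. The difference between the responses was 3.09 on the log2 scale for Myh2, 2.39 for Mylpf and 1.10 for Pygm. Their adjusted p-values were 0.356, 0.387 and 0.301, so none passed an FDR of 0.05. Leaving out 1 tumor, the differences ran from 2.56 to 4.26, from 1.82 to 3.24 and from 0.76 to 1.35 in the same order. In obese mice Pygm was higher in all 3 anti–PD-1–treated tumors than in all 3 isotype-treated ones, but the share of all genes without overlap was not counted. For Myh2 and Mylpf the groups overlapped in both diets.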

How the results depend on the processing

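No called gene changed direction under the alternatives run. Leaving out 1 tumor, the median log2 fold change of the tested genes ran from -0.80 to 0.40 in the nonobese response and from -0.46 to 1.11 between the diets under anti–PD-1, and thus changed sign. It ran from 1.18 to 3.63 in the obese response and from -3.12 to -1.22 between the diets under isotype. In nonobese mice 0 genes passed in every setting. The obese response counted 7 higher genes, but 17 with no filter, 27 with the tumor number as a block, 21 with only the 6 tumors compared and 28 without the 4 tumors numbered 1 (chosen after seeing the data); leaving out 1 tumor gave 0 to 25. Between the diets under isotype 1 gene was lower, but 8 with no filter, 24 with the block, 8 with 6 tumors and 20 without the tumors numbered 1, and 0 to 20 leaving out 1 tumor. Under anti–PD-1, the counts of 0 became 3 higher with the block, 1 higher without the tumors numbered 1 and 1 lower with no filter. The difference between responses had 3 higher genes, 1 by DESeq2, 25 with the block and 17 without the tumors numbered 1; leaving out 1 tumor gave 0 to 15 higher and 0 to 1 lower. By the labels the tumors share only a number. Deviations of same-numbered tumors correlated at 0.136 on average (-0.251 to 0.550), over 0.1 in 9 of 18 pairs, against -0.0655 for other numbers. Of the 12 tumors, 5 correlated best with a tumor of their own number. Among the tumors numbered 1, the isotype-treated nonobese one correlated at 0.537 and 0.550 with the anti–PD-1–treated nonobese and obese ones. These last correlated with each other at 0.420. The isotype-treated obese one correlated with the others at -0.113 to -0.00346. Whether the number marks a batch is not known. Of 262 values of single genes, 205 stayed on their side of the threshold and 57 fell below it. Group means of the fast share and of the summed level moved by less than the spread between tumors. Single values moved more: with the 7 pairs the fast share of tumor 1 went from 76.7% to 59.9% (isotype, nonobese) and from 68.3% to 53.9% (isotype, obese), outside their counting intervals, and with a prior count of 0.5 the widest ratio went from 194.7 to 776. No alternative of 6 tumors was run for the difference between responses. With 3 tumors per group, the median 95% interval of these genes spanned 4.35 to 6.31 log2 units, and levels below about 0.0882 to 0.212 CPM could not be told from 0.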
